A study of Mus musculus with 18 samples.

Results

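The 36 genes described here encode the core machinery of macroautophagy, its cargo receptors and a pair of transcription factors that act on autophagy and lysosome genes. They were taken as a list of gene symbols by their place in the pathway, with earlier results of these data known. All 36 were found among the 28030 Ensembl mouse gene identifiers of the count table. All 36 also passed the filter on low counts, as did 12477 genes in all. By step of the pathway they comprise 5 genes of the ULK1 complex, 4 of class III PI3 kinase complex I, 5 of membrane supply and lipid transfer, 9 of the conjugation systems, 5 ATG8 proteins, 3 cargo receptors, 3 mitophagy receptors and 2 transcription factors. Each had at least 55 estimated counts in every library. Mean levels over the 18 libraries ran from 3.69 CPM, counts scaled to the library's total, for Atg10 to 419 CPM for Sqstm1.

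Autophagy encloses cytoplasm in a double membrane, the autophagosome, which fuses with lysosomes so that its contents are broken down and reused. The kinase ULK1 starts the process when mTORC1 activity falls or AMPK is active, a PI3 kinase complex then marks the membrane with phosphatidylinositol 3-phosphate, and a pair of ubiquitin-like conjugation systems attach ATG8 proteins to the growing membrane, where they hold cargo receptors. In the liver, fasting is a classical trigger of autophagy, which supplies amino acids and fatty acids from hepatocyte protein and lipid stores.

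RNA was measured in hepatocytes isolated with digitonin from the pericentral zone, around the central vein, or the periportal zone, around the portal triad, of C57BL/6J wild-type male mice aged 12 weeks on normal chow. All groups shared a training of 3 days with 16 h of fasting overnight and 8 h of daytime feeding, and all had food with 20% sucrose in the drinking water before the experiment. Fed mice (labelled 0 h) were killed at clock hour 13 after 4 h of feeding, mice fasted for 8 h at clock hour 21, and mice fasted for 24 h at clock hour 13 of the next day. Each of the 6 groups of zone and state held 3 libraries. The 8 h groups differed from the fed and the 24 h groups both in fasting time and in clock hour, and for those comparisons the contributions of fasting and time of day cannot be told apart. The 24 h and fed groups were taken at the same clock hour.

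Estimated counts summed to between 1.84e+07 and 2.64e+07 per library. Summed pericentral markers (Cyp2e1, Cyp1a2, Oat and Glul) lay between 9305 and 18314 CPM in pericentral and between 420.0 and 2044 CPM in periportal libraries, and summed periportal markers (Cyp2f2, Hal, Gls2 and Sds) between 278 and 1793 CPM and between 3134 and 5413 CPM. In 1 library, pericentral 24 h replicate 2, Glul was at 111 CPM and Sds at 215 CPM, inside the ranges of the 9 periportal libraries (62.6 to 175 CPM and 187 to 1009.9 CPM), while Cyp2e1, at 10266 CPM, was at a pericentral level. The numbers of autophagy genes called in each comparison that used its group are given with and without that library. Counts by step of the pathway, of genes called in both zones and in lists of related genes are given only with it. Hepatocyte markers (Alb, Apoa1, Ttr, Serpina1a and Hnf4a) summed to at least 54462 CPM in each library, and the sums were higher in periportal (107349 to 180258 CPM) than in pericentral libraries (54462 to 95065 CPM). All 6 markers each of sinusoidal endothelial cells, of Kupffer cells and leukocytes and of stellate cells and fibroblasts had counts in at least 1 library but stayed low, with sums of at most 30.7, 16.5 and 14.7 CPM. Of 5 cholangiocyte markers Epcam was at 0 in all 18 libraries, and the list summed to at most 56.7 CPM. The 3 erythroid genes summed to 0 to 7.17 CPM in pericentral and to 0.162 to 48.6 CPM in periportal libraries. The 11 clock genes summed to 323 to 512 CPM in the fed and 24 h libraries and to 146 to 235 CPM in the 8 h libraries. The sums hide single genes. At 24 h against fed, 2 were called higher and 1 lower in pericentral and 1 higher and 2 lower in periportal hepatocytes. That was 27.3% in each zone, beside 21.8% and 19.6% of all genes. Per2 was at 56.3 to 72.6 CPM in fed and at 21.5 to 28.2 CPM in 24 h libraries. The 10 immediate early and heat shock genes summed to 85.0 to 557 CPM over all libraries. The part of these lists in the results below was not tested. The labels do not say that the 3 libraries of a group came from separate mice, and p-values then measure the spread between these libraries, which may be technical. In such bulk samples fewer cells of a type and less RNA per cell cannot be told apart.

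The autophagy genes called between feeding states were mostly higher after fasting, by small amounts. Calls were made where q, the p-value of edgeR's quasi-likelihood test after Benjamini-Hochberg adjustment over all 12477 genes, was under 0.05. At 8 h against fed, 8 of 36 genes were called in pericentral hepatocytes, 7 higher and 1 lower, where 13.8% of all genes were called (7.27% higher, 6.57% lower). In periportal hepatocytes 12 of 36 were called, all higher, against 14.4% of all genes (7.56% higher, 6.85% lower). At 24 h against fed, 12 were called in pericentral hepatocytes (21.8% of all genes, 10.8% higher, 11.1% lower) and 15 in periportal hepatocytes (19.6% of all genes, 9.59% higher, 1250 of 12477 genes lower), all of them higher. The shares of autophagy genes called higher were 19.4% and 33.3% at 8 h and 33.3% and 41.7% at 24 h, in pericentral and periportal hepatocytes in that order. Because the genes were chosen with earlier results of these data known, these shares are a description and not a test of enrichment. The median log2 fold change of the 36 genes was 0.10 and 0.20 at 8 h and 0.20 and 0.18 at 24 h, beside 0.01, 0.01, 0.01 and -0.00 for all genes tested. The comparisons of 8 h and of 24 h against fed share the fed libraries, and their values stand side by side without a test of likeness. In the pericentral libraries the periportal markers moved with fasting too. All 4 were called higher at 24 h, with a median log2 fold change of 1.92, and their sum went from 278 to 456 CPM in fed libraries to 466 to 598 CPM at 8 h and 806 to 1793 CPM at 24 h, highest in 24 h replicate 2. Their part in the pericentral results was not tested. Without pericentral 24 h replicate 2 the pericentral count at 24 h was again 12. Without periportal fed replicate 1 the periportal count at 8 h was 7.

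Between 24 h and 8 h, 7 of 36 genes were called in pericentral hepatocytes (5 higher, 2 lower, 9.71% of all genes called, 5.20% higher and 4.51% lower) and 6 in periportal hepatocytes (4 higher, 2 lower, 7.46% of all genes called, 3.22% higher and 4.24% lower). Higher at the later time in both zones were Bnip3, Map1lc3a and Map1lc3b. These counts moved with single libraries, and when the fit held only the groups compared the pericentral count was 2. Leaving out pericentral 8 h replicate 1 gave 3 genes, 8 h replicate 2 gave 4, and 24 h replicates 1, 2 and 3 gave 4, 4 and 1. The periportal count was 3 without 8 h replicate 2 and 1 without 24 h replicate 2.

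**Figure D1:**
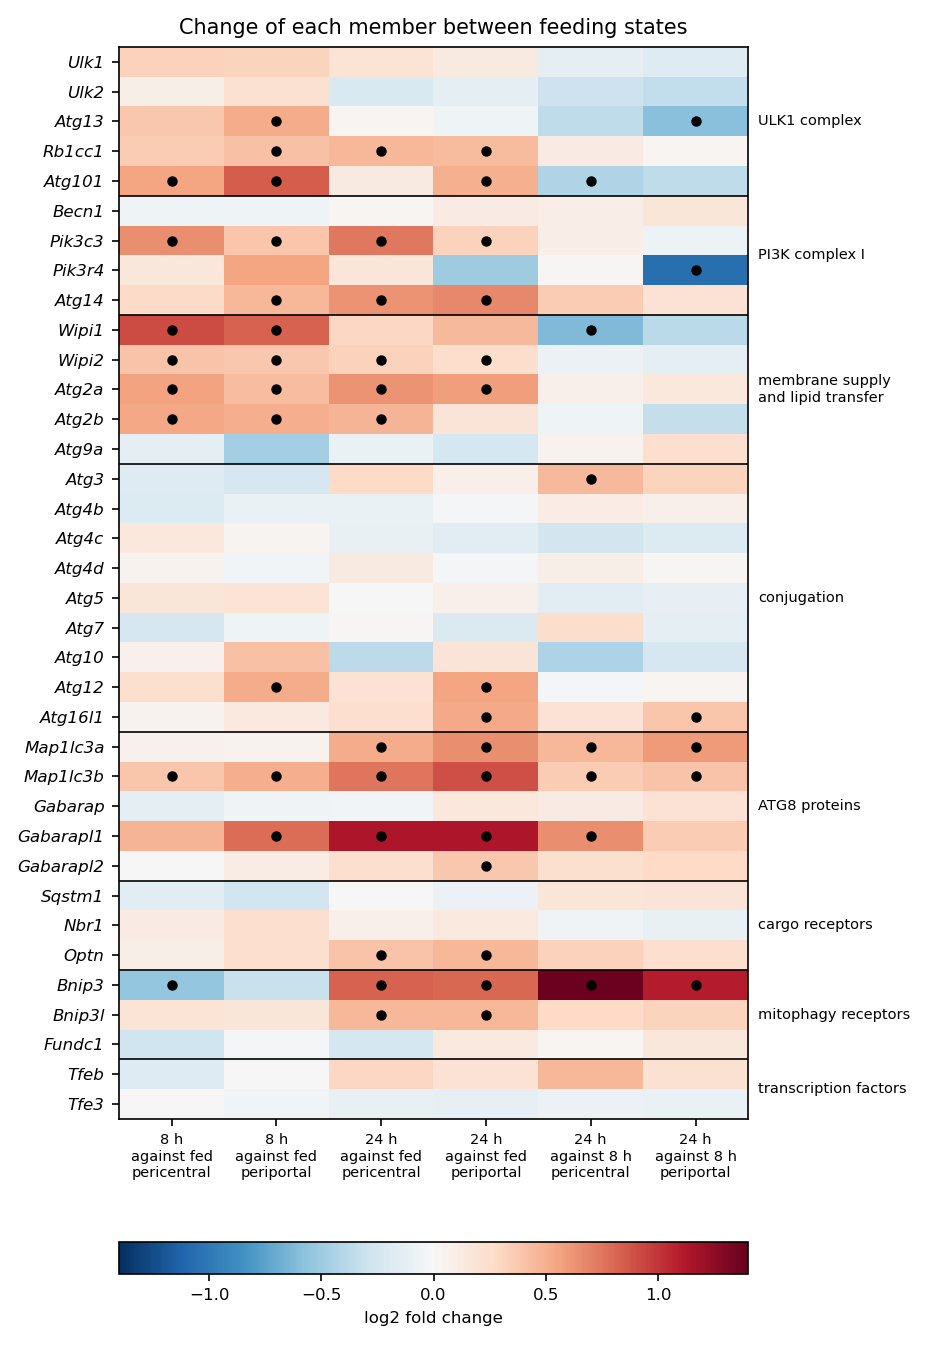
Log2 fold change of each of the 36 autophagy genes (rows, grouped by step) in the 6 comparisons between feeding states (columns). Colour gives the log2 fold change, red higher and blue lower in the state named first, and a black dot marks a call at q under 0.05. The 24 h columns against fed hold 12 and 15 dots, all on red cells, and the darkest cells are Gabarapl1 at 24 h and Bnip3 between 24 h and 8 h.

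Promoter windows from RefSeq (GRCm38.p6, 250 bases before to 50 bases after an annotated start) were found for 29 of the 36 genes, in 34 windows. Rb1cc1, Becn1, Pik3c3, Atg12, Atg16l1, Map1lc3a and Bnip3l had no window and were not searched. All of these but Becn1 were called higher at 24 h against fed in 1 or both zones, so the motif counts leave out many of the genes that rose. Both strands were searched for 4 motifs. The E-box core CACGTG was in 5 of 34 windows (14.7%) against 7.15% of all 32851 windows, those of Atg14, Atg3, Atg5, Atg7 and Bnip3. Of these genes, Atg3, Atg5 and Atg7 were called in none of the 4 comparisons against fed. The window of Atg7, at chr6:114670846-114671145, lies inside the gene as annotated by GENCODE. TCACGTGA, the core of the element named CLEAR that TFEB is known to bind and which contains the E-box core, was in 1 window (2.94%, Atg3) against 0.974% of all windows. TGACGTCA, the cAMP response element bound by CREB, was in 1 window (2.94%, Atg5) against 1.79%, and the forkhead box O motif GTAAACA in 0 windows against 3.65%. Only these exact letters were searched, so variants of a motif were not counted, and 0 windows does not mean that no related site is present. Such a match is a description of letters and not a shown binding site. The windows printed are those of Gabarapl1, which had the largest fold change at 24 h, of Bnip3 and Atg14, which were called at 24 h and hold the E-box core, and of Atg3, which holds the CLEAR core. Each is given 5′ to 3′ in the direction of the gene, with motif matches in capitals. They lie at chr6:129532942-129533241 on the plus strand, chr7:138909457-138909756 on the minus strand, chr14:47568385-47568684 on the minus strand and chr16:45158579-45158878 on the plus strand. The E-box core of Bnip3 begins 108 bases before the start and that of Atg14 1 base before it. In Atg3 the E-box cores begin 94 and 71 bases before the start, the later one inside the CLEAR core, which begins at 72.
Gabarapl1: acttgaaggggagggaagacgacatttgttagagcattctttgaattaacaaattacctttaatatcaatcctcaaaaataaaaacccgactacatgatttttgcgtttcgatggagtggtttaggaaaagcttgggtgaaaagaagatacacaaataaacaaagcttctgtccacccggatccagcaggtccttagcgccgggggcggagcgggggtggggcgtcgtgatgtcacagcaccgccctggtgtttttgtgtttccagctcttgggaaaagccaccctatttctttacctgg
Bnip3: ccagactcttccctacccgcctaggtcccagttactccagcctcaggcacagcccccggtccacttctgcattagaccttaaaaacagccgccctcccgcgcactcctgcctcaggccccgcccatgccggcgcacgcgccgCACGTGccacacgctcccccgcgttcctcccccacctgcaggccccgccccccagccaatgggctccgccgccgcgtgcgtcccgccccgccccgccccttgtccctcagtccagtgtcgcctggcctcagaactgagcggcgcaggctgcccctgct
Atg14: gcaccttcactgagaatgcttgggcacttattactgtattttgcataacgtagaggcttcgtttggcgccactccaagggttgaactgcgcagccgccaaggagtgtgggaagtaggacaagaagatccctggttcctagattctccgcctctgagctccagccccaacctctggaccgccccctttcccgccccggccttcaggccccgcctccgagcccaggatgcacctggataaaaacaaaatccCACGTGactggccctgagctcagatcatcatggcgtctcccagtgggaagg
Atg3: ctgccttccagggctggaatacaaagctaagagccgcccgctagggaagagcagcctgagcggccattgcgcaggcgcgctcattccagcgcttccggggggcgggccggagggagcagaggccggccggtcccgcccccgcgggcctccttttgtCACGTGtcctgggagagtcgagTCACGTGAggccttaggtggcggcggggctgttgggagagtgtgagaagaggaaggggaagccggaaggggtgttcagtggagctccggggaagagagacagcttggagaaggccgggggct

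In the ULK1 complex, the kinase genes themselves were not called between feeding states, while genes of their partners were. Ulk1 encodes the kinase that starts autophagosome formation. It lies at chr5:110784488-110810097 on the minus strand (ENSMUSG00000029512) in GRCm38, as annotated by GENCODE M21. In pericentral hepatocytes Ulk1 was at 51.5, 44.8 and 45.2 CPM in fed libraries, 56.8, 67.9 and 52.1 CPM after 8 h and 60.1, 49.5 and 52.2 CPM after 24 h of fasting. In periportal hepatocytes Ulk1 was at 56.9, 84.0 and 52.7 CPM in fed libraries, 82.4, 88.8 and 68.2 CPM after 8 h and 75.9, 72.7 and 62.8 CPM after 24 h of fasting. The 3 pericentral 8 h libraries were above the 3 fed ones, and in periportal hepatocytes the states overlapped, with fed replicate 2 as high as the 8 h libraries. The log2 fold change of Ulk1 against fed was 0.32 (SE 0.16, q = 0.211) and 0.19 (SE 0.16, q = 0.426) at 8 h and 24 h in pericentral hepatocytes, and 0.31 (SE 0.16, q = 0.220) and 0.13 (SE 0.16, q = 0.631) in periportal ones. Its paralogue Ulk2 had values of 0.08, -0.21, 0.21 and -0.13 in the same order, none of them called.

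Atg101, which encodes a HORMA domain subunit that binds ATG13 and stabilises the complex, was the subunit gene with the largest rise. Atg101 is at chr15:101284272-101290945 on the plus strand (ENSMUSG00000037204). In pericentral hepatocytes Atg101 was at 16.2, 19.5 and 18.4 CPM in fed libraries, 23.0, 28.8 and 27.1 CPM after 8 h and 18.6, 19.7 and 20.8 CPM after 24 h of fasting. In periportal hepatocytes Atg101 was at 14.3, 17.1 and 15.4 CPM in fed libraries, 26.5, 30.9 and 27.0 CPM after 8 h and 18.6, 24.4 and 23.3 CPM after 24 h of fasting. In both zones all 8 h libraries lay above all fed libraries, and the 24 h libraries were intermediate, clear of the fed ones in periportal hepatocytes and overlapping them in pericentral ones. At 8 h against fed the log2 fold change was 0.55 (SE 0.12, q = 0.00584) in pericentral and 0.85 (SE 0.12, q = 2.26e-04) in periportal hepatocytes. At 24 h it was 0.50 (SE 0.12, q = 0.00829) in periportal hepatocytes and 0.13 (SE 0.12, q = 0.505), not called, in pericentral ones. From 8 h to 24 h Atg101 fell in pericentral hepatocytes, with a log2 fold change of -0.42 (SE 0.12, q = 0.0385). The call was lost without 8 h pericentral replicate 2 (-0.37), 8 h pericentral replicate 3 (-0.41), 24 h pericentral replicate 1 (-0.39), 24 h pericentral replicate 2 (-0.42) or 24 h pericentral replicate 3 (-0.46), and with a filter of 1 count only (-0.43) and in a fit of only the groups compared (-0.41).

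Atg13, the adaptor subunit that links ULK1 to the complex, rose at 8 h in periportal hepatocytes by 0.52 (SE 0.13, q = 0.0106) and was lower again at 24 h than at 8 h, with -0.58 (SE 0.13, q = 0.0121). The pericentral changes of Atg13 were 0.38 at 8 h against fed and -0.35 from 8 h to 24 h, and neither was called (q = 0.0566 and 0.0930). The periportal calls of Atg13 were lost without fed periportal replicate 2 (0.45) and without 24 h periportal replicate 2 (-0.52). Rb1cc1, which encodes the scaffold FIP200, rose by 0.41 in periportal hepatocytes at 8 h and by 0.46 and 0.44 in pericentral and periportal hepatocytes at 24 h. These calls of Rb1cc1 were lost without fed periportal replicate 1 (0.35), fed periportal replicate 3 (0.42) or 8 h periportal replicate 2 (0.32), and in a fit of only the groups compared (0.41) at 8 h, without fed pericentral replicate 3 (0.36) or 24 h pericentral replicate 3 (0.39) at 24 h in pericentral hepatocytes and without fed periportal replicate 1 (0.39) or 24 h periportal replicate 3 (0.38) in periportal ones.

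Within class III PI3 kinase complex I, the genes of the catalytic subunit and of the autophagy-specific subunit rose, and Becn1 was not called in any comparison. Pik3c3 encodes the lipid kinase VPS34. Pik3c3 is at chr18:30272747-30348126 on the plus strand (ENSMUSG00000033628). In pericentral hepatocytes Pik3c3 was at 12.5, 12.1 and 9.97 CPM in fed libraries, 16.8, 19.3 and 18.1 CPM after 8 h and 21.4, 19.1 and 17.3 CPM after 24 h of fasting. In periportal hepatocytes Pik3c3 was at 13.9, 14.8 and 14.9 CPM in fed libraries, 18.7, 20.1 and 18.4 CPM after 8 h and 19.6, 17.9 and 16.8 CPM after 24 h of fasting. All fasted libraries lay above all fed libraries of the same zone. Against fed, the log2 fold change was 0.65 (SE 0.11, q = 7.13e-04) at 8 h and 0.74 (SE 0.11, q = 1.61e-04) at 24 h in pericentral hepatocytes, a fold of 1.67 at 24 h. The periportal value was 0.39 (SE 0.11, q = 0.0216) and 0.32 (SE 0.11, q = 0.0487). The periportal calls were less stable. That at 8 h was lost without fed periportal replicate 1 (0.36), fed periportal replicate 2 (0.41) or 8 h periportal replicate 2 (0.35), and that at 24 h without any 1 of 15 libraries (0.26 to 0.37), every library except fed pericentral replicate 3, 24 h pericentral replicate 1 and 24 h pericentral replicate 3, and with a filter of 1 count only (0.31) and in a fit of only the groups compared (0.32).

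Atg14 encodes the subunit that directs the complex to the sites of autophagosome formation, and its window with an E-box core is printed above. It rose at 24 h by 0.63 (SE 0.14, q = 0.00430) in pericentral hepatocytes, from 13.0 ± 1.27 to 20.2 ± 2.01 CPM (SD, n = 3 each). In periportal hepatocytes it rose by 0.67 (SE 0.14, q = 0.00351), from 12.1 ± 2.09 to 19.2 ± 2.5 CPM. At 8 h it was called in periportal hepatocytes (0.47) and not in pericentral ones (0.27). The 8 h call of Atg14 was lost without fed periportal replicate 1 (0.34), fed periportal replicate 2 (0.48), 8 h periportal replicate 1 (0.46), 8 h periportal replicate 2 (0.50) or 8 h periportal replicate 3 (0.45), and in a fit of only the groups compared (0.47) and with the replicate block (0.47).

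Pik3r4 encodes the regulatory subunit VPS15. In pericentral hepatocytes Pik3r4 was at 8.09, 8.27 and 7.75 CPM in fed libraries, 12.2, 6.32 and 8.24 CPM after 8 h and 10.4, 10.4 and 6.33 CPM after 24 h of fasting. In periportal hepatocytes Pik3r4 was at 4.13, 9.71 and 8.49 CPM in fed libraries, 10.1, 11.6 and 11 CPM after 8 h and 6.60, 4.91 and 4.32 CPM after 24 h of fasting. Values were low and scattered, and periportal fed replicate 1 was the lowest of the 18 libraries. From 8 h to 24 h Pik3r4 fell in periportal hepatocytes, with a log2 fold change of -1.05 (SE 0.29, q = 0.0385), and the 3 libraries of each state did not overlap. That call was lost without 8 h periportal replicate 1 (-1.12), 8 h periportal replicate 2 (-1.01), 8 h periportal replicate 3 (-1.05), 24 h periportal replicate 2 (-1.01) or 24 h periportal replicate 3 (-0.93), and with a filter of 1 count only (-1.06). In pericentral hepatocytes the same change was 0.02 (SE 0.28, q = 0.98), not called.

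Becn1 encodes Beclin 1, the scaffold on which the complex assembles. In pericentral hepatocytes Becn1 was at 59.6, 62.5 and 57.6 CPM in fed libraries, 58.9, 54.7 and 58.6 CPM after 8 h and 67.5, 54.9 and 61.1 CPM after 24 h of fasting. In periportal hepatocytes Becn1 was at 58.4, 60.9 and 51.1 CPM in fed libraries, 57.4, 52.5 and 53.4 CPM after 8 h and 62.5, 58.7 and 62.1 CPM after 24 h of fasting. Fed and fasted libraries overlapped in both zones. The 4 log2 fold changes against fed were -0.06, 0.03, -0.06 and 0.11 (SE 0.09 each), and the 95% interval at 24 h ran from -0.16 to 0.22 in pericentral and from -0.08 to 0.29 in periportal hepatocytes. Exons of Becn1 overlap those of Cntd1 on the opposite strand over 43.9% of their length in GENCODE, and Cntd1 itself had at most 5 counts in any library.

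Membrane supply and lipid transfer was the step with the most genes called at 8 h, 4 of 5 in each zone, where 13.8% of all genes were called in pericentral and 14.4% in periportal hepatocytes. Wipi1 encodes a PROPPIN protein that binds phosphatidylinositol 3-phosphate on the forming membrane. Wipi1 is at chr11:109573331-109611967 on the minus strand (ENSMUSG00000041895). In pericentral hepatocytes Wipi1 was at 17.3, 12.9 and 14.4 CPM in fed libraries, 30.0, 31.1 and 22.9 CPM after 8 h and 23.4, 15.0 and 16.1 CPM after 24 h of fasting. In periportal hepatocytes Wipi1 was at 11.5, 11.4 and 9.92 CPM in fed libraries, 17.6, 22.0 and 18.9 CPM after 8 h and 18.4, 13.7 and 12.9 CPM after 24 h of fasting. In both zones the 3 libraries at 8 h lay above the 3 fed libraries, and 24 h replicate 1 of each zone lay above the lowest 8 h library. At 8 h the log2 fold change was 0.91 (SE 0.18, q = 0.00251) in pericentral hepatocytes, a fold of 1.88. In periportal hepatocytes it was 0.83 (SE 0.18, q = 0.00568), a fold of 1.78. At 24 h it was 0.29 (SE 0.18, q = 0.28) and 0.45 (SE 0.18, q = 0.0987), neither called. The fall from 8 h to 24 h was called in pericentral hepatocytes, -0.62 (SE 0.18, q = 0.0368). It was lost without 8 h pericentral replicate 1 (-0.58), 8 h pericentral replicate 2 (-0.56), 24 h pericentral replicate 2 (-0.50) or 24 h pericentral replicate 3 (-0.54), and in a fit of only the groups compared (-0.62). In periportal hepatocytes the same change was -0.38 and not called. Fasting time and clock hour cannot be told apart for the 8 h level of Wipi1.

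Atg2a and Atg2b encode the bridge proteins that carry lipids from the endoplasmic reticulum into the growing membrane. In pericentral hepatocytes Atg2a was at 20.1, 16.1 and 17.6 CPM in fed libraries, 27.4, 24.3 and 27.7 CPM after 8 h and 31.5, 27.5 and 24.0 CPM after 24 h of fasting. In periportal hepatocytes Atg2a was at 18, 18 and 19.3 CPM in fed libraries, 27.1, 24.1 and 23.4 CPM after 8 h and 32.8, 28.1 and 21.8 CPM after 24 h of fasting. Every fasted library lay above every fed library of its zone. Against fed the log2 fold change of Atg2a was 0.56 (SE 0.14, q = 0.0104) at 8 h and 0.63 (SE 0.14, q = 0.00355) at 24 h in pericentral hepatocytes. The periportal value was 0.43 (SE 0.14, q = 0.0432) and 0.58 (SE 0.14, q = 0.00697). The calls at 24 h held without each library in turn. That at 8 h was lost without fed pericentral replicate 2 (0.50) in pericentral hepatocytes, and in periportal ones without any 1 of 10 libraries (0.37 to 0.48), every library except fed pericentral replicate 1, fed pericentral replicate 2, 8 h pericentral replicate 1, 8 h pericentral replicate 2, 24 h pericentral replicate 1, 24 h pericentral replicate 3, 24 h periportal replicate 1 and 24 h periportal replicate 3, and with a filter of 1 count only (0.44).

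Atg2b was called at 0.54 and 0.51 at 8 h in pericentral and periportal hepatocytes and at 0.48 at 24 h in pericentral ones, and its periportal value at 24 h was 0.18. Each call of Atg2b was lost when single libraries were left out. This held at 8 h in pericentral hepatocytes without fed pericentral replicate 2 (0.59), fed pericentral replicate 3 (0.37) or 8 h pericentral replicate 3 (0.42), and in a fit of only the groups compared (0.54), and in periportal ones without fed pericentral replicate 2 (0.51), fed periportal replicate 1 (0.52), fed periportal replicate 2 (0.47), fed periportal replicate 3 (0.55), 8 h periportal replicate 1 (0.53) or 8 h periportal replicate 3 (0.39). At 24 h the pericentral call was lost without any 1 of 9 libraries (0.31 to 0.51), every library except fed pericentral replicate 1, 8 h pericentral replicate 1, 8 h pericentral replicate 3, 8 h periportal replicate 2, 8 h periportal replicate 3, 24 h pericentral replicate 2, 24 h periportal replicate 1, 24 h periportal replicate 2 and 24 h periportal replicate 3, and in a fit of only the groups compared (0.47). Wipi2, which recruits ATG16L1 to the membrane, was called in all 4 comparisons against fed at 0.40, 0.32, 0.38 and 0.25 (pericentral 8 h and 24 h, then periportal). Its calls at 8 h held without each library in turn. At 24 h the pericentral one was lost without 24 h pericentral replicate 1 (0.26) and the periportal one without any 1 of 11 libraries (0.20 to 0.28), every library except fed pericentral replicate 3, 8 h pericentral replicate 1, 8 h periportal replicate 1, 8 h periportal replicate 3, 24 h pericentral replicate 1, 24 h pericentral replicate 3 and 24 h periportal replicate 3, and with a filter of 1 count only (0.24) and in a fit of only the groups compared (0.26). Atg9a, whose product is the lipid scramblase of the vesicles that seed autophagosomes, was not called and ranged from 11.7 to 25.0 CPM. Its exons share 31.8% of their length with a transcript on the same strand, Gm29253, and its values are uncertain to that extent.

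Of the 9 genes of the conjugation systems, 0 were called by edgeR in pericentral hepatocytes at 8 h or 24 h against fed, where 13.8% and 21.8% of all genes were called. In periportal hepatocytes 1 of 9 was called at 8 h and 2 of 9 at 24 h, beside 14.4% and 19.6% of all genes. Atg12 encodes the ubiquitin-like protein that is joined to ATG5. In pericentral hepatocytes Atg12 was at 28.4, 25.4 and 25.3 CPM in fed libraries, 29.1, 29.8 and 33.3 CPM after 8 h and 31.0, 29.7 and 30.0 CPM after 24 h of fasting. In periportal hepatocytes Atg12 was at 17.8, 20.0 and 19.8 CPM in fed libraries, 26.8, 30.7 and 24.9 CPM after 8 h and 27.3, 28.2 and 28.8 CPM after 24 h of fasting. The fed periportal libraries were the lowest of all and did not overlap with any other group. In periportal hepatocytes Atg12 rose by 0.52 (SE 0.09, q = 0.00146) at 8 h and by 0.55 (SE 0.09, q = 6.49e-04) at 24 h. In pericentral hepatocytes the changes were 0.22 (SE 0.09, q = 0.128) and 0.20 (SE 0.09, q = 0.138), not called.

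Atg16l1, whose product forms the E3-like complex with ATG12 and ATG5, rose in periportal hepatocytes at 24 h by 0.53 (SE 0.09, q = 5.15e-04) against fed and by 0.39 (SE 0.09, q = 0.0130) against 8 h. The pericentral change against fed was 0.24 (SE 0.09, q = 0.0538) and was not called, although its 3 libraries at 24 h lay above the 3 fed ones. The call against 8 h was lost without 8 h periportal replicate 2 (0.35) or 24 h periportal replicate 2 (0.36), and in a fit of only the groups compared (0.40). Atg3, the E2-like enzyme of ATG8 lipidation, was called between 24 h and 8 h in pericentral hepatocytes, 0.45 (SE 0.11, q = 0.0170). It was lost without 8 h pericentral replicate 1 (0.34), 24 h pericentral replicate 2 (0.41) or 24 h pericentral replicate 3 (0.42), and in a fit of only the groups compared (0.46).

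Atg5 encodes the acceptor of ATG12 and is required for lipidation of ATG8 proteins. In pericentral hepatocytes Atg5 was at 38.8, 42.5 and 36.6 CPM in fed libraries, 45.8, 45.4 and 41.0 CPM after 8 h and 38.4, 41.4 and 39.0 CPM after 24 h of fasting. In periportal hepatocytes Atg5 was at 35.2, 35.7 and 36.3 CPM in fed libraries, 35.3, 46.5 and 40.8 CPM after 8 h and 34.8, 43.3 and 34.4 CPM after 24 h of fasting. The states overlapped in both zones. The log2 fold change against fed was 0.17, 0.01, 0.19 and 0.07 (SE 0.11 each), none of them called. Atg7 encodes the E1-like enzyme that serves both conjugation systems. Atg7 is at chr6:114643097-114860614 on the plus strand (ENSMUSG00000030314). In pericentral hepatocytes Atg7 was at 44.2, 49.2 and 47.0 CPM in fed libraries, 38.3, 40.6 and 40.8 CPM after 8 h and 49.0, 45.1 and 48.0 CPM after 24 h of fasting. In periportal hepatocytes Atg7 was at 34.5, 32.5 and 37.7 CPM in fed libraries, 36.5, 30.4 and 33.7 CPM after 8 h and 33.9, 28.0 and 29.6 CPM after 24 h of fasting. The feeding states of Atg7 were not called in either zone (-0.23 and 0.02 in pericentral, -0.06 and -0.20 in periportal hepatocytes against fed), and all 9 periportal libraries lay below all 9 pericentral ones. The E2-like Atg10 (2.72 to 4.87 CPM over the 18 libraries) and the ATG8 proteases Atg4b (18.7 to 23.6 CPM), Atg4c (13.3 to 17.9 CPM) and Atg4d (4.80 to 7.34 CPM) were called in none of the 6 comparisons between states. Exons of Atg4d overlap those of Kri1 on the opposite strand over 19.3% of their length. Kri1 reached 10.9 CPM, above Atg4d, and the values of Atg4d are uncertain to that extent.

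The ATG8 genes, whose products are attached to the autophagosome membrane and bind cargo receptors, had the highest median log2 fold change of the 8 steps at 24 h against fed, 0.52 in pericentral and 0.65 in periportal hepatocytes. At that time 3 of the 5 genes were called higher in pericentral and 4 in periportal hepatocytes, beside 10.8% and 9.59% of all genes. Gabarapl1 had the largest fold change of all 36 genes against fed. Gabarapl1 is at chr6:129533160-129542346 on the plus strand (ENSMUSG00000030161). In pericentral hepatocytes Gabarapl1 was at 218, 245 and 192 CPM in fed libraries, 266, 327 and 318 CPM after 8 h and 429.8, 461 and 541 CPM after 24 h of fasting. In periportal hepatocytes Gabarapl1 was at 126, 166 and 194 CPM in fed libraries, 343, 239.8 and 248 CPM after 8 h and 339, 331 and 390.4 CPM after 24 h of fasting. Fed, 8 h and 24 h libraries formed 3 ranges without overlap in pericentral hepatocytes, whereas in periportal hepatocytes 8 h replicate 1 lay among the 24 h libraries. At 24 h the log2 fold change of Gabarapl1 was 1.13 (SE 0.17, q = 1.83e-04) in pericentral hepatocytes, a fold of 2.19. In periportal hepatocytes it was 1.13 (SE 0.17, q = 2.40e-04), a fold of 2.19. At 8 h it was 0.78 (SE 0.17, q = 0.00515) in periportal and 0.48 (SE 0.17, q = 0.0680), not called, in pericentral hepatocytes. From 8 h to 24 h the pericentral rise was 0.65 (SE 0.17, q = 0.0215), lost without 8 h pericentral replicate 1 (0.56) or 24 h pericentral replicate 3 (0.55). Exons of Gabarapl1 overlap a processed transcript, 1700101I11Rik, on the opposite strand over 28.3% of their length, and since the use of strand is not given in the sources used here, their reads cannot be told apart.

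Map1lc3b encodes LC3B, the ATG8 protein most used as a marker of autophagosomes. Map1lc3b is at chr8:121590361-121598760 on the plus strand (ENSMUSG00000031812). In pericentral hepatocytes Map1lc3b was at 79.1, 76.5 and 88.9 CPM in fed libraries, 114, 105 and 101 CPM after 8 h and 147, 119 and 144 CPM after 24 h of fasting. In periportal hepatocytes Map1lc3b was at 64.5, 70.2 and 60.1 CPM in fed libraries, 90.3, 92.3 and 94.1 CPM after 8 h and 122, 122 and 120.4 CPM after 24 h of fasting. The 3 states formed separate ranges in each zone. Against fed, the log2 fold change was 0.39 (SE 0.09, q = 0.00855) at 8 h and 0.75 (SE 0.09, q = 3.81e-05) at 24 h in pericentral hepatocytes, a fold of 1.68 at 24 h. The periportal value was 0.51 (SE 0.09, q = 0.00159) and 0.90 (SE 0.09, q = 8.00e-06), a fold of 1.87 at 24 h. From 8 h to 24 h it was 0.36 and 0.40, both called. The call between 24 h and 8 h was lost without 8 h pericentral replicate 2 (0.33), 8 h pericentral replicate 3 (0.30), 24 h pericentral replicate 1 (0.28) or 24 h pericentral replicate 3 (0.32), and with a filter of 1 count only (0.35) and in a fit of only the groups compared (0.36) in pericentral hepatocytes and without 8 h periportal replicate 2 (0.40) or 24 h periportal replicate 2 (0.39) in periportal ones, while all 4 calls against fed held without each library in turn.

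Map1lc3a encodes LC3A. In pericentral hepatocytes Map1lc3a was at 30.0, 32.6 and 33.3 CPM in fed libraries, 28.3, 30.6 and 41.0 CPM after 8 h and 50.1, 42.3 and 45.3 CPM after 24 h of fasting. In periportal hepatocytes Map1lc3a was at 22.4, 23.7 and 25.6 CPM in fed libraries, 27.2, 25.1 and 21.9 CPM after 8 h and 34.8, 42.0 and 35.7 CPM after 24 h of fasting. Fed and 8 h libraries overlapped and the 24 h libraries lay above both. The log2 fold change of Map1lc3a against fed was 0.06 and 0.05 at 8 h, not called, and 0.52 (SE 0.13, q = 0.00800) and 0.65 (SE 0.13, q = 0.00214) at 24 h, in pericentral and periportal hepatocytes. From 8 h to 24 h it was 0.46 and 0.60. These latter calls were lost without 8 h pericentral replicate 1 (0.35), 8 h pericentral replicate 2 (0.39), 24 h pericentral replicate 1 (0.38) or 24 h pericentral replicate 3 (0.47), and in a fit of only the groups compared (0.47) in pericentral hepatocytes and without 24 h periportal replicate 2 (0.51) in periportal ones. Gabarapl2 was called at 24 h in periportal hepatocytes at 0.38 (SE 0.10, q = 0.0169), with a pericentral value of 0.23. Its call was lost without fed periportal replicate 2 (0.36), fed periportal replicate 3 (0.32), 24 h periportal replicate 2 (0.36) or 24 h periportal replicate 3 (0.36). Gabarap, the remaining family member, stayed between 122 and 167 CPM in the 18 libraries and was not called.

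On a scale of CPM per kb, by the median length of annotated coding transcripts, Gabarapl1 had the highest value of the ATG8 genes in each group. That length was 902 bases for Gabarapl1 and 1050 for Gabarap, and which transcripts these cells use was not measured. All annotated exons of Gabarapl1 together cover 2013 bases. A longer transcript would lower the value of Gabarapl1, so its rank above Gabarap is uncertain. On this scale Gabarapl1 was at 242 ± 29.4 in fed, 337 ± 36.5 in 8 h and 529 ± 63.6 CPM per kb in 24 h pericentral libraries. In periportal libraries it was at 180 ± 37.9, 307 ± 63.6 and 392 ± 35.7 CPM per kb (SD, n = 3 each). Gabarap followed with means of 123 to 142 CPM per kb over the 6 groups. Map1lc3b rose from 49.3 ± 3.95 to 82.7 ± 9.3 CPM per kb between fed and 24 h in pericentral and from 39.3 ± 3.06 to 73.5 ± 0.559 CPM per kb in periportal libraries. Map1lc3a (21.5 to 41.3 CPM per kb) and Gabarapl2 (23.6 to 30.7 CPM per kb) were the lowest, and their ranges over the groups overlapped.

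**Figure D2:**
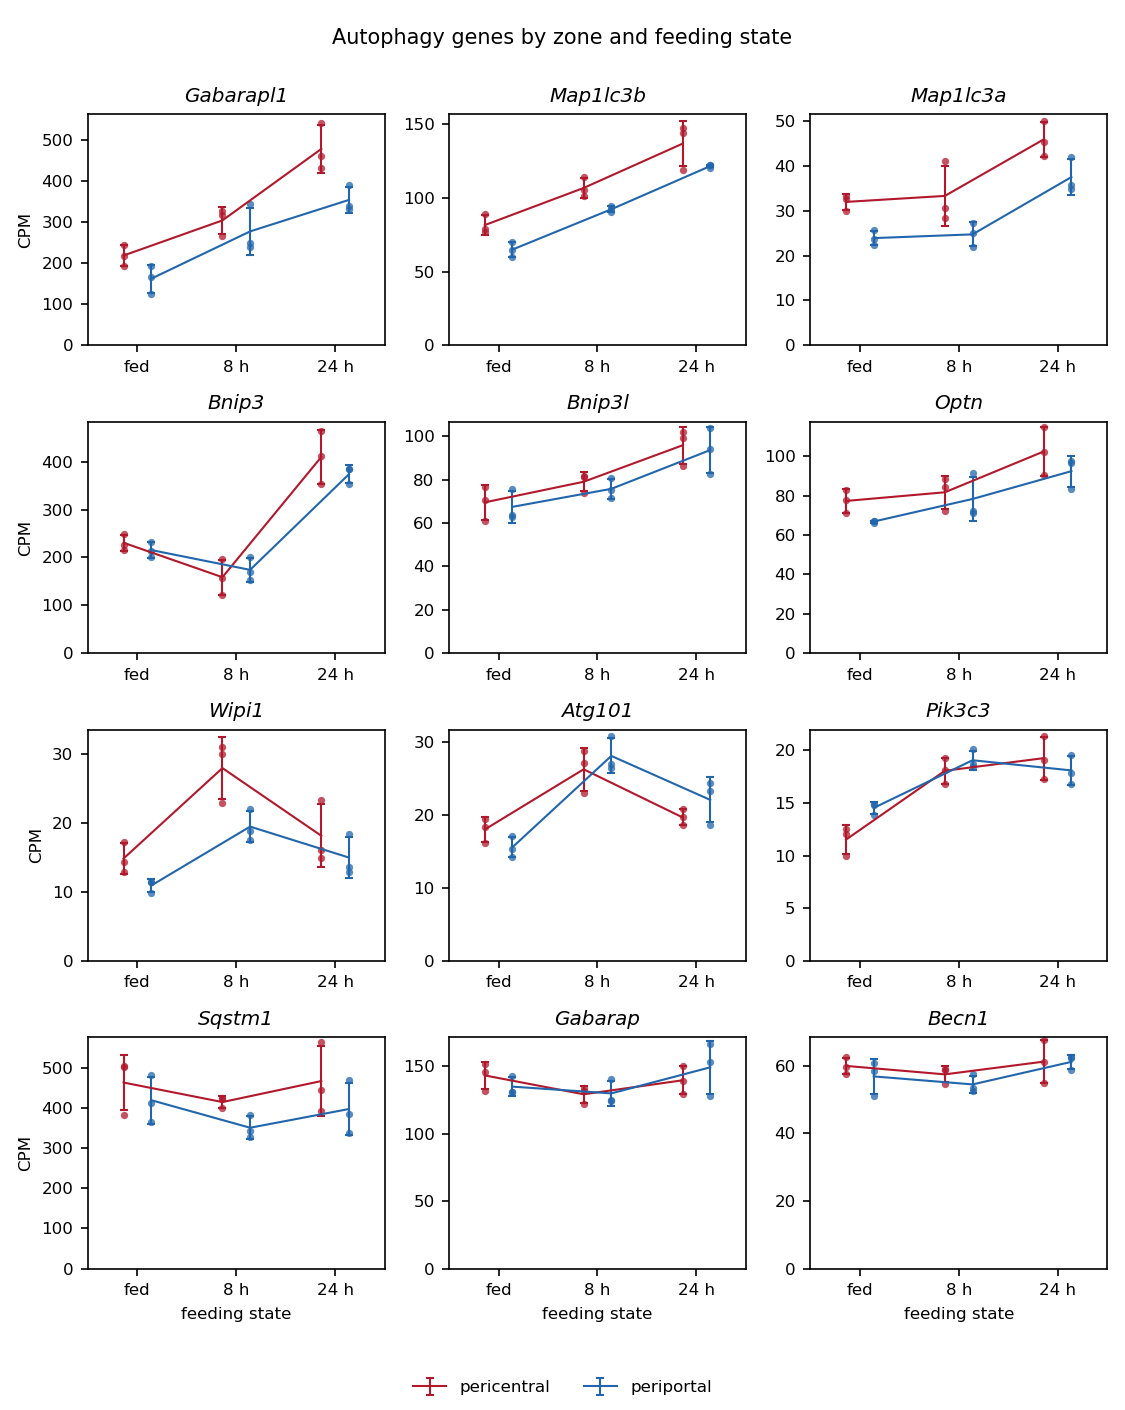
CPM of 12 autophagy genes in each library (points), with the mean of 3 libraries and its SD (line and bars), by feeding state on the horizontal axis, red for pericentral and blue for periportal hepatocytes. Each vertical axis starts at 0 and has its own range. Gabarapl1 and Map1lc3b climb over both fasting times, Wipi1 is highest at 8 h, Bnip3 is lowest at 8 h and highest at 24 h, and Sqstm1, Gabarap and Becn1 overlap between states.

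Among cargo receptors, which bind ubiquitinated material and ATG8 proteins, Optn was called and Sqstm1 and Nbr1 were not. Sqstm1 encodes p62. In pericentral hepatocytes Sqstm1 was at 505, 384 and 502 CPM in fed libraries, 422, 424 and 399 CPM after 8 h and 445, 393 and 564 CPM after 24 h of fasting. In periportal hepatocytes Sqstm1 was at 482, 412 and 365 CPM in fed libraries, 383, 343 and 327 CPM after 8 h and 339, 385 and 469 CPM after 24 h of fasting. Libraries of one state spread over more than 100 CPM in 4 of the 6 groups, and the states overlapped. The log2 fold change against fed was -0.16 (SE 0.16, q = 0.568) and 0.01 (SE 0.16, q = 0.972) at 8 h and 24 h in pericentral hepatocytes. In periportal hepatocytes it was -0.26 (SE 0.16, q = 0.314) and -0.08 (SE 0.16, q = 0.786). Exons of Sqstm1 overlap those of Mrnip on the opposite strand over 17.3% of their length, and Mrnip reached at most 4.10 CPM. Optn, which encodes optineurin, rose at 24 h by 0.40 (SE 0.12, q = 0.0193) in pericentral hepatocytes, from 77.3 ± 5.98 to 102 ± 12.2 CPM. In periportal hepatocytes it rose by 0.47 (SE 0.12, q = 0.00914), from 66.8 ± 0.50 to 92.4 ± 7.85 CPM (SD, n = 3 each). The pericentral call of Optn was lost without fed pericentral replicate 2 (0.40), fed pericentral replicate 3 (0.34) or 24 h pericentral replicate 2 (0.31). Nbr1 ranged from 155 to 232 CPM and was not called between states.

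Mitophagy receptors sit in the outer mitochondrial membrane and tie mitochondria to ATG8 proteins. Bnip3 was the gene with the largest change between 8 h and 24 h in both zones. Bnip3 is at chr7:138890836-138909519 on the minus strand (ENSMUSG00000078566). In pericentral hepatocytes Bnip3 was at 216, 249 and 227 CPM in fed libraries, 122, 158 and 196 CPM after 8 h and 353, 412 and 465 CPM after 24 h of fasting. In periportal hepatocytes Bnip3 was at 200.4, 232 and 214 CPM in fed libraries, 169, 152 and 201 CPM after 8 h and 353, 385 and 384 CPM after 24 h of fasting. The 24 h libraries lay above all others in each zone, and the 8 h libraries lay below the fed ones in pericentral hepatocytes while periportal 8 h replicate 3 overlapped the fed range. At 24 h against fed the log2 fold change of Bnip3 was 0.83 (SE 0.15, q = 0.00101) in pericentral hepatocytes, a fold of 1.78. The periportal value was 0.80 (SE 0.15, q = 0.00160), a fold of 1.74. From 8 h to 24 h it was 1.37 (SE 0.15, q = 7.99e-05) and 1.10 (SE 0.15, q = 6.38e-04), folds of 2.58 and 2.15 in pericentral and periportal hepatocytes. These 4 calls held without each library in turn.

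At 8 h Bnip3 was the only autophagy gene called lower than in the fed state, in pericentral hepatocytes, with -0.54 (SE 0.15, q = 0.0246). That call was lost without fed pericentral replicate 2 (-0.47), fed pericentral replicate 3 (-0.55), 8 h pericentral replicate 1 (-0.38) or 8 h pericentral replicate 2 (-0.53), and in a fit of only the groups compared (-0.54). In periportal hepatocytes the 8 h value was -0.31 (SE 0.15, q = 0.198), not called. Exons of Bnip3 overlap an antisense transcript, Gm45507, over 22.3% of their length, and the same limit holds. Bnip3l, which encodes the paralogue NIX, rose at 24 h by 0.46 (SE 0.11, q = 0.00649) in pericentral and 0.47 (SE 0.11, q = 0.00646) in periportal hepatocytes. Its means went from 69.5 ± 7.99 to 95.8 ± 8.52 CPM and from 67.4 ± 7.24 to 93.7 ± 10.8 CPM (SD, n = 3 each), and both calls held without each library in turn. A processed pseudogene, Bnip3l-ps, may share reads with Bnip3l. Fundc1, a receptor known from hypoxic mitophagy, stayed between 5.77 and 9.02 CPM and was not called. Per kb of transcript, Bnip3 rose from 186 ± 13.6 to 331 ± 45.3 CPM per kb between fed and 24 h pericentral libraries, and Bnip3l from 21.4 ± 2.45 to 29.5 ± 2.62 CPM per kb.

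The transcription factor genes Tfeb and Tfe3 were not called between feeding states. Their products are held in the cytoplasm by mTORC1 phosphorylation and act on lysosome and autophagy genes once in the nucleus, a step that RNA levels do not measure. In pericentral hepatocytes Tfeb was at 8.33, 7.40 and 9.23 CPM in fed libraries, 6.10, 8.46 and 7.54 CPM after 8 h and 9.34, 11.4 and 9.79 CPM after 24 h of fasting. In periportal hepatocytes Tfeb was at 8.83, 11.2 and 9.77 CPM in fed libraries, 11.4, 8.94 and 9.27 CPM after 8 h and 12.2, 12.4 and 9.70 CPM after 24 h of fasting. The 3 pericentral libraries at 24 h were above those of both earlier states, and the periportal states overlapped. The log2 fold change of Tfeb against fed was -0.18 (SE 0.16, q = 0.529) and 0.29 (SE 0.15, q = 0.197) in pericentral hepatocytes and -0.01 (SE 0.15, q = 0.977) and 0.20 (SE 0.15, q = 0.401) in periportal ones. Tfe3 ranged from 13.9 to 23.7 CPM over the 18 libraries.

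Taking all steps, 18 of the 36 genes were called in none of the 4 comparisons against fed. Their log2 fold changes ran from -0.50 to 0.55. This group held Becn1, both Ulk kinases, Pik3r4, Atg9a, 7 of the 9 conjugation genes, Gabarap, Sqstm1, Nbr1, Fundc1, Tfeb and Tfe3. Of all genes tested, between 13.8% and 21.8% were called in each of the 4 comparisons. The share of all genes called in none of them was not computed, so the count of 18 has no background beside it. A missing call does not show an equal level. Counts were simulated for this design at 24 h against fed in pericentral hepatocytes. Of genes changed by 0.5 on the log2 scale 11% were called, and of those changed by 1, 58%. Only 100 genes were changed at each size, with 73 calls, where the data gave 2726 in that comparison. The adjusted threshold moves with the number of calls, so these shares need not hold for the data.

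Next, the zones were compared. Averaged over the 3 feeding states, 9 of 36 genes were called between zones, 2 higher and 7 lower in periportal hepatocytes, where 20.3% of all genes were called (10.3% higher and 9.96% lower). Atg7 had the largest of these differences, at -0.44 (SE 0.05, q = 1.52e-05). Of the ATG8 genes, Map1lc3a at -0.38 (SE 0.07, q = 0.00141), Gabarapl1 at -0.33 (SE 0.10, q = 0.0206) and Map1lc3b at -0.24 (SE 0.05, q = 0.00403) were lower on the portal side, and Gabarap (0.01) and Gabarapl2 (-0.01) were not called. Wipi1 (-0.42), Ulk2 (-0.37) and Atg12 (-0.24) were also lower there. The 2 genes higher in periportal hepatocytes were Ulk1 at 0.43 (SE 0.09, q = 0.00284) and Tfeb at 0.28 (SE 0.09, q = 0.0327). The Ulk kinase genes thus stood on opposite sides, Ulk1 higher and Ulk2 lower toward the portal vein. Of these calls Tfeb was the one lost when single libraries were left out, without any 1 of 9 libraries (0.24 to 0.28), every library except fed pericentral replicate 3, fed periportal replicate 1, fed periportal replicate 3, 8 h pericentral replicate 2, 8 h pericentral replicate 3, 8 h periportal replicate 2, 8 h periportal replicate 3, 24 h pericentral replicate 2 and 24 h periportal replicate 3. Without pericentral 24 h replicate 2 the count was again 9. Markers of other cells differed between the zones as well, with 4 of 5 tested endothelial, 3 of 6 Kupffer cell and leukocyte, 2 of 3 cholangiocyte and 2 of 3 erythroid markers called higher in periportal hepatocytes, and their part in these results was not tested.

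Within single states fewer genes were called between zones. In fed mice 3 of 36 were called, all lower in periportal hepatocytes (8.01% of all genes called, 4.13% lower). They were Atg12 at -0.46 (SE 0.09, q = 0.00485), Atg7 at -0.42 (SE 0.09, q = 0.00830) and Map1lc3b at -0.33 (SE 0.09, q = 0.0361), and for each the 3 periportal libraries lay below the 3 pericentral ones. The fed call of Map1lc3b was lost without fed pericentral replicate 1 (-0.35), fed pericentral replicate 3 (-0.26), fed periportal replicate 1 (-0.32) or fed periportal replicate 3 (-0.28), and with a filter of 1 count only (-0.33) and in a fit of only the groups compared (-0.32), and without periportal 8 h replicate 1 the count in fed mice was 5. At 8 h edgeR called 0 of 36 genes (7.14% of all genes, 3.72% higher and 3.42% lower), with 7 (19.4%) at an unadjusted p under 0.05, beside 20.9% of all genes, and 1 by DESeq2. Each of 3 omissions, of fed periportal replicate 2, 8 h pericentral replicate 1 and 8 h periportal replicate 1, gave 1 gene. At 24 h Atg7 alone was called (4.17% of all genes, 1.70% higher and 2.47% lower), at -0.64 (SE 0.09, q = 7.57e-04). The pericentral levels of Atg7 were 47.4 ± 2.03 CPM there and the periportal ones 30.5 ± 3.03 CPM (SD, n = 3 each), and the call held without each library in turn, pericentral 24 h replicate 2 among them.

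**Figure D3:**
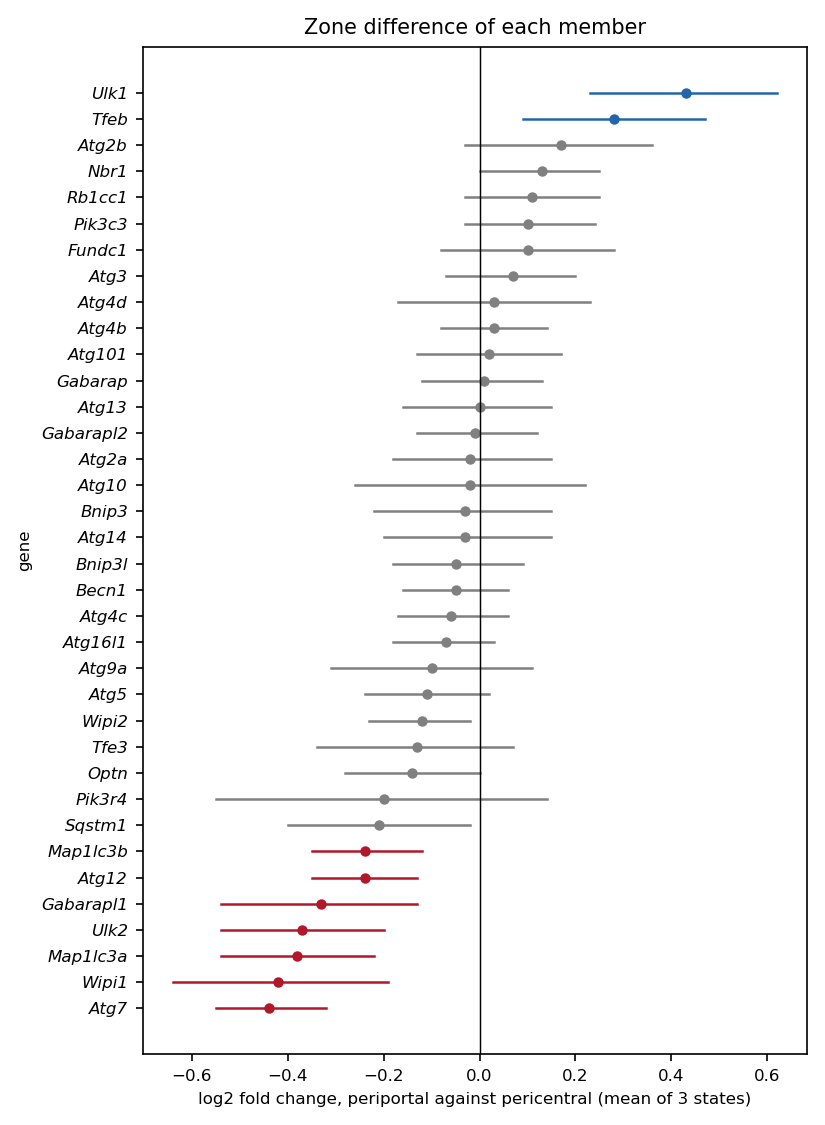
Log2 fold change between zones, averaged over the 3 feeding states, for each of the 36 autophagy genes (points) with its 95% interval (lines). Values above 0 are higher in periportal hepatocytes. Blue marks the 2 genes called higher there, red the 7 called lower and grey those not called.

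Whether fasting moved the genes differently in the zones was tested as the periportal change minus the pericentral change. From fed to 8 h edgeR called 0 of 36 autophagy genes (0 of all genes, 1 autophagy gene or 2.78% at an unadjusted p under 0.05 beside 5.45% of all genes, 0 by DESeq2). From fed to 24 h it also called 0 of 36 (0.0160% of all genes called, 4 autophagy genes or 11.1% at an unadjusted p under 0.05 beside 7.71% of all genes, 0 by DESeq2). For the 3 genes with the largest rise at 24 h the difference was -0.00 (95% interval -0.50 to 0.50, q = 1.0) for Gabarapl1, -0.04 (95% interval -0.49 to 0.42, q = 0.984) for Bnip3 and 0.16 (95% interval -0.12 to 0.43, q = 0.829) for Map1lc3b. These intervals still allow the zones to differ by up to 0.50 on the log2 scale. The 4 genes at an unadjusted p under 0.05 were Pik3c3, at -0.42 (95% interval -0.75 to -0.10, q = 0.514), Atg12, at 0.35 (95% interval 0.08 to 0.63, q = 0.522), Atg101, at 0.38 (95% interval 0.01 to 0.74, q = 0.626), and Atg16l1, at 0.29 (95% interval 0.03 to 0.55, q = 0.60). Of these, the rise of Pik3c3 was the larger in pericentral hepatocytes and those of the other 3 the larger in periportal ones, and none passed the adjustment over all genes. Separately tested, 11 genes were called higher in both zones at 24 h, which is 91.7% of the 12 called higher in pericentral and 73.3% of the 15 called higher in periportal hepatocytes. Over all genes tested the shares were 54.6% of 1344 and 61.4% of 1196, with 734 genes in common.

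**Figure D4:**
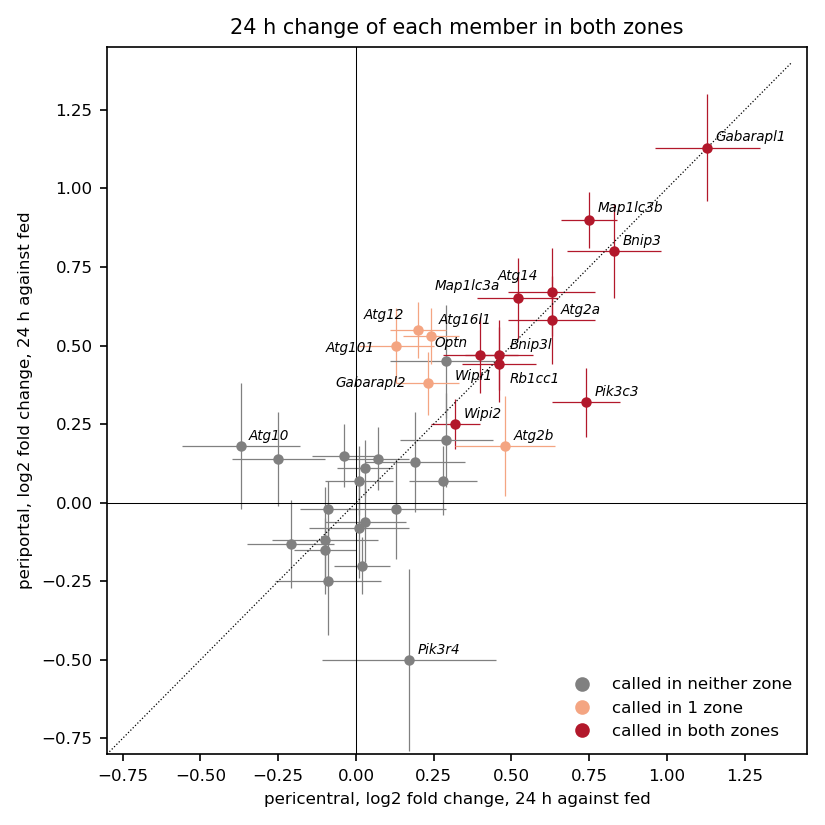
Log2 fold change at 24 h against fed of each of the 36 autophagy genes in pericentral (horizontal axis) and periportal hepatocytes (vertical axis), with SE bars. Red marks genes called in both zones, orange in 1 zone and grey in neither, and the dotted line marks equal change. Gabarapl1 lies at 1.13 on both axes, Pik3c3 below and Atg12, Atg16l1 and Atg101 above the line.

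Other genes of the pathway were described in the same comparison, 24 h against fed. These lists, too, were chosen with earlier results of these data known. Up to 3 called genes per list and zone are named, so a gene named in 1 zone may have moved in the other. The zone difference in this change was called for 0 genes of the 5 lists and for 0.0160% of all genes. A missing call does not show an equal change. Of 49 lysosome genes, 10 rose and 2 fell in pericentral hepatocytes and 8 rose and 1 fell in periportal ones, with medians of 0.06 and 0.10 beside 0.01 and -0.00 for all genes. The shares called were 24.5% and 18.4%, close to the 21.8% (11.1% lower) and 19.6% (1250 genes lower) of all genes. Npc1, the cholesterol exporter of lysosomes, went from 106 ± 16.2 to 214 ± 12.5 CPM in pericentral hepatocytes (log2 fold change 1.01, SE 0.13, q = 5.37e-05). Sgsh, an enzyme of heparan sulphate breakdown, went from 6.05 ± 1.34 to 3.06 ± 0.688 CPM in pericentral hepatocytes (log2 fold change -0.98, SE 0.32, q = 0.0374). In the other zone the protease gene Ctsl went from 359.6 ± 36.3 to 546 ± 65.7 CPM in periportal hepatocytes (log2 fold change 0.60, SE 0.20, q = 0.0411), and the glycosidase genes Idua and Manba from 2.89 ± 0.461 to 4.80 ± 0.490 CPM in periportal hepatocytes (log2 fold change 0.73, SE 0.21, q = 0.0228) and from 19.0 ± 2.84 to 12.3 ± 1.87 CPM in periportal hepatocytes (log2 fold change -0.63, SE 0.16, q = 0.00941). Most lysosome genes were called in neither zone.

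Of 31 tested genes of nutrient signalling to autophagy (33 in the list), 6 rose and 4 fell in pericentral and 6 rose and 2 fell in periportal hepatocytes, with medians of 0.07 and -0.08 and shares called of 32.3% and 25.8%, beside 21.8% and 19.6% of all genes. Sesn2, a leucine-sensitive inhibitor of mTORC1, went from 3.98 ± 0.592 to 15.0 ± 4.57 CPM in pericentral hepatocytes (log2 fold change 1.91, SE 0.21, q = 1.15e-05). In the other zone it went from 4.61 ± 0.599 to 18.9 ± 0.555 CPM in periportal hepatocytes (log2 fold change 2.03, SE 0.20, q = 7.94e-06). Both values were larger than those of any of the 36 autophagy genes against fed. Fnip1, a partner of folliculin, went from 21.4 ± 5.70 to 60.7 ± 9.80 CPM in pericentral hepatocytes (log2 fold change 1.5, SE 0.19, q = 4.07e-05), and from 24.0 ± 4.91 to 46.2 ± 4.38 CPM in periportal hepatocytes (log2 fold change 0.94, SE 0.18, q = 0.00189). Ddit4, which encodes the mTORC1 inhibitor REDD1, went from 25.5 ± 12.1 to 143 ± 52.7 CPM in periportal hepatocytes (log2 fold change 2.49, SE 0.66, q = 0.0185). Castor2 of the arginine-sensing branch went from 4.10 ± 0.111 to 1.77 ± 0.805 CPM in pericentral hepatocytes (log2 fold change -1.19, SE 0.30, q = 0.00913).

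Of 18 transcription factor genes, 8 rose and 4 fell in pericentral and 7 rose and 3 fell in periportal hepatocytes, with medians of 0.04 and 0.03. The shares called were 66.7% and 55.6%, beside 21.8% and 19.6% of all genes. Foxo1, a factor that insulin signalling keeps out of the nucleus, went from 29.4 ± 0.46 to 70.9 ± 10.3 CPM in pericentral hepatocytes (log2 fold change 1.27, SE 0.17, q = 8.57e-05). In the other zone it went from 27.0 ± 4.70 to 69.6 ± 13.1 CPM in periportal hepatocytes (log2 fold change 1.37, SE 0.17, q = 5.68e-05). Cebpb went from 66.8 ± 9.63 to 154 ± 49.5 CPM in pericentral hepatocytes (log2 fold change 1.21, SE 0.23, q = 0.00156) and from 73.7 ± 15.7 to 137 ± 28.1 CPM in periportal hepatocytes (log2 fold change 0.89, SE 0.23, q = 0.0121). Ppara, the receptor that drives fatty acid oxidation genes, went from 99.4 ± 11.8 to 194 ± 17.9 CPM in pericentral hepatocytes (log2 fold change 0.96, SE 0.15, q = 2.45e-04), and Xbp1, of the unfolded protein response, from 238 ± 4.89 to 99.9 ± 7.73 CPM in periportal hepatocytes (log2 fold change -1.25, SE 0.18, q = 2.08e-04). The factors called thus moved in both directions.

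Among 22 other receptor genes, 4 rose and 1 fell in pericentral and 5 rose and 1 fell in periportal hepatocytes, with medians of 0.12 and 0.10 and shares called of 22.7% and 27.3%, near or above those of all genes. Calcoco1, a receptor for autophagy of the endoplasmic reticulum, went from 13.6 ± 2.49 to 41.6 ± 3.89 CPM in pericentral hepatocytes (log2 fold change 1.61, SE 0.14, q = 2.35e-06). In the other zone it went from 13.7 ± 0.936 to 37.1 ± 4.25 CPM in periportal hepatocytes (log2 fold change 1.44, SE 0.14, q = 7.86e-06). It stood above Optn, Sqstm1 and Nbr1 in log2 fold change. Ncoa4, the receptor for ferritin, went from 195 ± 11.1 to 370.3 ± 50.5 CPM in periportal hepatocytes (log2 fold change 0.92, SE 0.20, q = 0.00389), and Wdfy3, an adaptor for protein aggregates, from 29.4 ± 4.53 to 50.1 ± 5.35 CPM in pericentral hepatocytes (log2 fold change 0.77, SE 0.15, q = 0.00131). The falls were Hspa8, the chaperone of chaperone-mediated autophagy, which went from 2388 ± 259.6 to 1422 ± 208 CPM in pericentral hepatocytes (log2 fold change -0.75, SE 0.22, q = 0.0215), and Fyco1, an adaptor for autophagosome transport, which went from 47.0 ± 5.97 to 32.5 ± 3.84 CPM in periportal hepatocytes (log2 fold change -0.53, SE 0.14, q = 0.0146).

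Of 28 other genes of initiation, membrane formation and fusion, 2 rose and 2 fell in pericentral and 2 rose and 3 fell in periportal hepatocytes, with medians of 0.04 and -0.00. The shares called, 14.3% and 17.9%, were below the 21.8% and 19.6% of all genes. The scramblase gene Tmem41b went from 51.9 ± 6.82 to 22.7 ± 1.84 CPM in pericentral hepatocytes (log2 fold change -1.19, SE 0.12, q = 6.34e-06). In the other zone it went from 41.5 ± 2.57 to 23.1 ± 3.10 CPM in periportal hepatocytes (log2 fold change -0.84, SE 0.12, q = 1.54e-04). It fell by more than any of the 36 autophagy genes did against fed. The tethering factor gene Tecpr1 went from 7.30 ± 0.255 to 4.87 ± 1.02 CPM in pericentral hepatocytes (log2 fold change -0.58, SE 0.16, q = 0.0144) and from 7.05 ± 0.823 to 5.07 ± 0.789 CPM in periportal hepatocytes (log2 fold change -0.48, SE 0.16, q = 0.0429). Genes called higher included Vps11, of the HOPS tethering complex, which went from 21.2 ± 2.03 to 31.5 ± 3.10 CPM in pericentral hepatocytes (log2 fold change 0.57, SE 0.09, q = 2.62e-04), and the PROPPIN gene Wdr45, which went from 24.3 ± 1.73 to 33.6 ± 0.684 CPM in periportal hepatocytes (log2 fold change 0.47, SE 0.12, q = 0.0130).

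**Figure D5:**
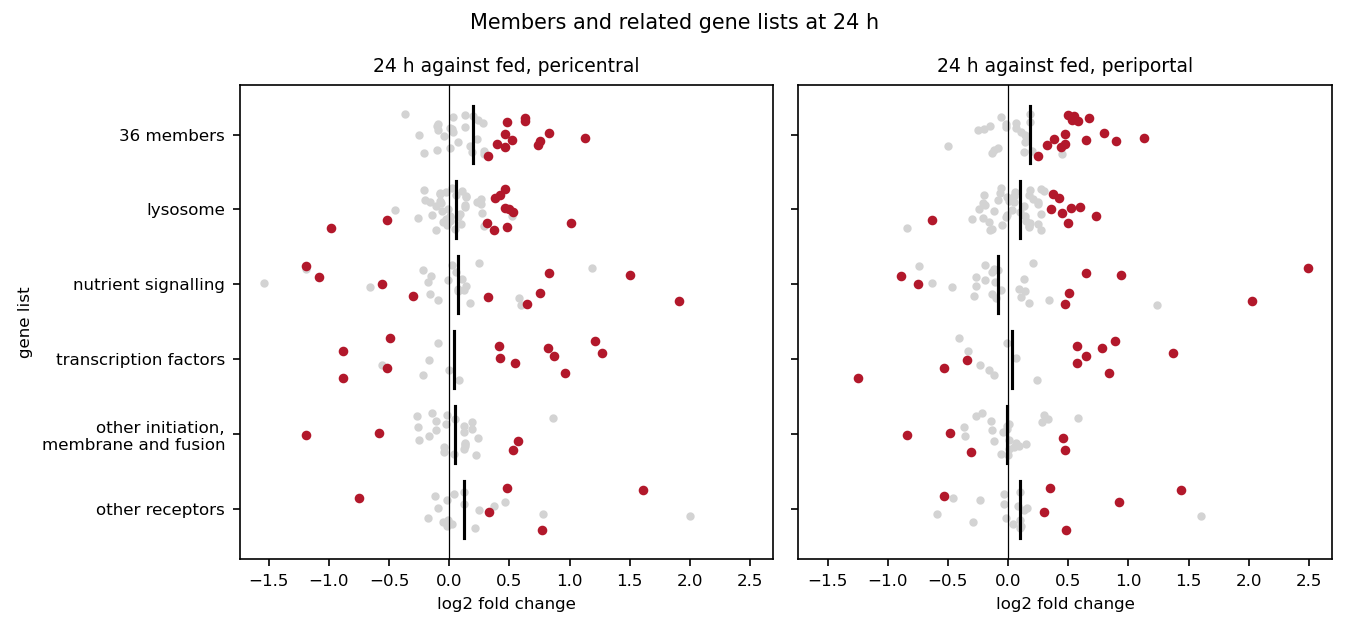
Log2 fold change at 24 h against fed (horizontal axis) of the 36 autophagy genes and of 5 related lists (rows), in pericentral (left) and periportal hepatocytes (right). Each point is a gene, red where called by edgeR, and the black bar is the median of the list. In the top row red points are all above 0, and in the other rows they lie on both sides.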

How the data were processed

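RNA from 18 hepatocyte libraries was analysed, 3 in each of 6 groups of zone and feeding state. The deposited values are estimated counts per Ensembl gene, made by the authors, and the submitters' processing notes name kallisto 0.46.0 and mm10. The annotation release and the use of strand are not given in the sources used here. The estimated counts were rounded to whole numbers. Columns without a mapped sample numbered 0. Genes passing filterByExpr (12477 of 28030) were fitted in edgeR 4.0.16 under R 4.3.3 with TMM scaling and robust quasi-likelihood F tests, in 1 model of the 6 groups with 12 contrasts. Benjamini-Hochberg adjustment ran over all genes tested, and calls were made at 0.05. Levels are CPM on TMM-scaled library sizes, with SD over 3 libraries. CPM per kb used the median length of GENCODE M21 coding transcripts. Library totals of 1.84e+07 to 2.64e+07 left at least 55 counts per autophagy gene and library.

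The members and the related gene lists were chosen with earlier results of these data known. Values in every library are given for the 3 called genes with the largest change in each comparison and for 1 chosen gene per step, Ulk1, Becn1, Atg5, Map1lc3b, Gabarapl1, Sqstm1, Bnip3 and Tfeb. From each related list up to 3 called genes with the largest change at 24 h per zone are named, and 1 gene that the rule names is not reported here. The alternatives were DESeq2 size factors, no filter beyond 1 count, a fit of only the groups compared, a replicate block, the Wald test of DESeq2 1.42.0 and leaving out each library. The fit was tested on simulated counts for 24 h against fed in pericentral hepatocytes (12477 genes), where 4 of 73 calls were false.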

Additional observations from a re-analysis of the deposited data

How the results depend on the processing

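Of 64 calls of an autophagy gene in a single comparison, 35 held under all 23 alternatives and 48 under the 5 that kept every library. Of the 9 calls for the mean of the 3 states, for which a fit of only the groups compared was not run, 8 held under all 22 alternatives and 9 under the 4 that kept every library. None of these 73 calls changed direction under the alternatives run. All 30 that were lost were lost without at least 1 single library. With each library left out in turn, the number of the 36 genes called against fed ran from 6 to 10 at 8 h and from 9 to 12 at 24 h in pericentral hepatocytes, and from 7 to 12 and from 12 to 15 in periportal ones. At 24 h against 8 h it ran from 1 to 7 in pericentral and from 1 to 6 in periportal hepatocytes. Between zones it ran from 2 to 5 in fed mice, from 0 to 1 at 8 h, from 1 to 1 at 24 h and from 8 to 10 for the mean of the 3 states, and for both zone differences it stayed at 0. A fit of only the groups compared called 2 genes at 24 h against 8 h in pericentral hepatocytes, against 7. DESeq2 called 5 genes between zones in fed mice, against 3, and 1 at 8 h, against 0. With replicate number as a block, the counts in the 6 comparisons of states were 10, 11, 13, 15, 7 and 8, in the 4 of zones 3, 0, 1 and 10, and 0 for both zone differences. The labels do not say whether the numbers pair libraries, and the data did not settle it. Same-numbered libraries had correlations of -0.120 to 0.206 in their deviations from the group means, 7 of 45 of them above 0.1. The median was 0.0321, beside -0.0207 for libraries of different numbers. Of the 18 libraries, 14 correlated best with their own number among the 3 numbers. A shared source of same-numbered libraries thus remains possible, and the main model does not include it. Each autophagy gene had at least 55 counts in every library, and the effect of depth on the calls was not tested.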
